A study of Mus musculus with 12 samples.

Results

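The genes described here encode the proteins of the cytosolic ribosome, the machine that translates nuclear messages into protein. They were taken as the entries of a liver count table whose symbols follow the pattern Rpl or Rps with a number, the letter a, or p and a digit, with an optional final a, l or x. The pattern found 82 of 24527 gene symbols, 32 named for the small subunit and 50 for the large subunit. It takes in the coding copies Rpl3l, Rpl10l, Rpl39l and Rps27l, as well as Rps4l and Rpl32l, which the annotation used here lists as processed pseudogenes and for which the transcript stands in for the coding sequence. It leaves out Rps3a1, Fau and Rack1, among others, which also encode parts of the ribosome.

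Messenger RNA was sequenced from the livers of 12 mice aged 39 weeks, all from CF1 females and B6SJL males. Offspring conceived naturally were compared with offspring of in vitro fertilization (IVF), where egg and sperm meet in a dish and the embryo is moved to a recipient female. There were 4 groups, IVF females, natural females, IVF males and natural males, with 3 libraries each. The IVF groups were made by an IVF protocol of the Jackson Laboratory, and no genotype, drug or diet distinguished the groups in the labels. The labels name no litter, so p-values measure the spread between these libraries. IVF female 1 and IVF male 2 carry the same number in their titles, with different suffixes. What that number stands for is not stated, so these 2 libraries may not be independent. Replicate numbers 1 to 3 only name libraries and pair none.

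Nearly all of these proteins are part of every ribosome, whose subunits are largely assembled in the nucleolus from ribosomal RNA and imported proteins. Their messages commonly begin with an unbroken run of pyrimidines, the terminal oligopyrimidine tract, through which mTORC1 and the RNA-binding protein LARP1 set how much of the message is translated. Mammalian genomes also carry many processed pseudogenes of these genes, which are copies of the spliced message inserted elsewhere. In the liver, ribosomal protein messages serve a tissue that makes plasma proteins throughout life, and several of these genes are used as reference genes for other measurements.

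The copies are shown first because they bear on what a count per symbol can hold. In the coding sequences of the GENCODE annotation (release M21, build GRCm38), a median of 90.2% of the 50-base words of a member also occurred in another annotated gene. At least 50% of the words were shared in 65 of the 82 members, and all of them in 29. Of the 78 nuclear genes for mitochondrial ribosomal proteins, 52 shared no such word and the median was 0%. Rpl7a shared words with 123 genes, Rpl29 with 84, Rpl21 with 82 and Rps2 with 71. Each pair below gives 60 coding bases of a member whose values are described later and the same stretch of a close annotated copy, 5′ to 3′, with the differing bases in capitals.
Rpl35a, coding bases 99 to 158: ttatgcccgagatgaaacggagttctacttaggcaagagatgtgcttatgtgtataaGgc
Gm10243: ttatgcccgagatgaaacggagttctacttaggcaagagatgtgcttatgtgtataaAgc
Rps2, coding bases 27 to 86: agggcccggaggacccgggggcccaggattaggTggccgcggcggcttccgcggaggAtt
Rps2-ps13: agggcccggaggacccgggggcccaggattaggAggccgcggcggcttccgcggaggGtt
Rpl29, coding bases 397 to 456: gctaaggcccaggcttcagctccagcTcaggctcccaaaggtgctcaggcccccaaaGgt
Gm6344: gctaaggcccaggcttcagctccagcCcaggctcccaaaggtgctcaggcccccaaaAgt
Rpl37, coding bases 192 to 251: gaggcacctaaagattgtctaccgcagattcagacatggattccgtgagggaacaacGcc
Rpl37rt: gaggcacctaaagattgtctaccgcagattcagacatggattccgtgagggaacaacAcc
Rpl26, coding bases 120 to 179: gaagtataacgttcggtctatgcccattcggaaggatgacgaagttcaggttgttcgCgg
Gm15772: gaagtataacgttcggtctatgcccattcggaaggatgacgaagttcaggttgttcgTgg
Rpl35a (chr16:33056453-33060189, plus strand) differs from Gm10243 (chr6) at 1 of 330 coding bases. Rps2 (chr17:24718116-24721929, plus strand) differs from Rps2-ps13 (chrX) at 7 of 879, and Rpl29 (chr9:106429454-106431568, plus strand) differs from Gm6344 (chr13) at 3 of 480. Rpl37 (chr15:5116645-5119140, plus strand) differs from Rpl37rt (chr5) at 1 of 291. Rpl26 (chr11:68901583-68906989, plus strand) differs from Gm15772 (chr5) at 2 of 435. All 5 copies are processed pseudogenes in the annotation, and Rpl37rt is annotated as transcribed. How reads that match several genes were counted is not given in the sources used here, nor is the use of strand, and the part of either in the levels below was not tested. Exons of 37 members overlap another annotated gene, such as Ube2s, on the opposite strand, at Rpl28, and reads of such a pair cannot be told apart without strand.

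The starts of the messages are shown because these genes are known for a pyrimidine tract there, although not every annotated start had such a run. RefSeq starts of build GRCm38.p6 were at hand for 61 of the 82 members. Where a gene had several starts, the one with the longest run was taken, for members and other genes alike. Pyrimidines (C or T) were read on the strand with the message's sequence, within 20 bases on either side of the start. A run of at least 8 lay there in 30 of the 61 members, or 49.2%. The share was 18.8% of 69 genes for mitochondrial ribosomal proteins and 19.3% of 10212 tested genes of any kind. Each line below gives 10 bases before the start and 15 from it on, with runs of at least 5 pyrimidines in capitals.
Rps6: gaagtcgggCCTCTTTTTCgtgacg
Rps18: caCTTCCgCTCTCTCTTCCacagga
Rpl15: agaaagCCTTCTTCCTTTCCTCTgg
Rpl28: tctcgtgTCTCTCTTTCCgTCTCCg
Rpl35: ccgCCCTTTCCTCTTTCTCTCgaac
Rpl35a: gcttgCCTTCCTCTTTCCgccatct
Rps3: aagggtcgccgcgctgcgcggcgtc
Rpl23: gtccggtcacgtggctgagtgggcg
The stretches are chr4:86857353-86857377 for Rps6, chr17:33955651-33955675 for Rps18, chr14:18270972-18270996 for Rpl15 and chr7:4792955-4792979 for Rpl28. Those of Rpl35, Rpl35a, Rps3 and Rpl23 are chr2:39005117-39005141, chr16:33056472-33056496, chr7:99483695-99483719 and chr11:97782425-97782449. The stretches of Rpl28 and Rpl35a are on the plus strand and the other 6 on the minus strand. The longest run near the start was 18 bases in Rpl35, 17 in Rpl15 and 13 in Rpl35a, and it was 3 in Rps3 and in Rpl23. Rpl35a had 3 annotated starts, and the one with the longest run is shown. A run of these letters is a description of the annotated start, which may differ from the start used in this liver.

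The libraries held 6826534 to 27832271 counts, and IVF female 1 and natural female 2, with 6826534 and 8056230, were the shallowest. Levels are given as CPM, counts relative to library size (cpm in edgeR) after TMM scaling. By the 3 counts that a 0 can hide, from counting error only, the detection floor was 0.108 to 0.439 CPM over the libraries. This floor was taken on library totals without TMM scaling. All 10 hepatocyte markers were detected, with summed levels of 98547 to 133084 CPM. The summed level of 11 Kupffer cell markers was 210 to 326 CPM in IVF males, 393 to 431 in natural males, 423 to 625 in IVF females and 415 to 537 in natural females. The 45S precursor Rn45s took 0.190% to 3.76% of counts.

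The 82 members together took a small share of each library. It was 0.493% ± 0.0646 (SD, n = 3) in IVF females, 0.578% ± 0.125 in natural females, 0.461% ± 0.0396 in IVF males and 0.442% ± 0.0342 in natural males. The lowest library was natural male 2 with 0.419% (95% Wilson interval 0.416 to 0.421) and the highest natural female 3 with 0.653% (0.649 to 0.657), close to natural female 2 with 0.648%. The ranges of the 4 groups overlapped. The mitochondrial ribosomal proteins, a set of nearly the same size, took 0.139% to 0.176%. In bulk tissue, fewer cells of a type and less RNA per cell cannot be told apart.

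**Figure D1:**
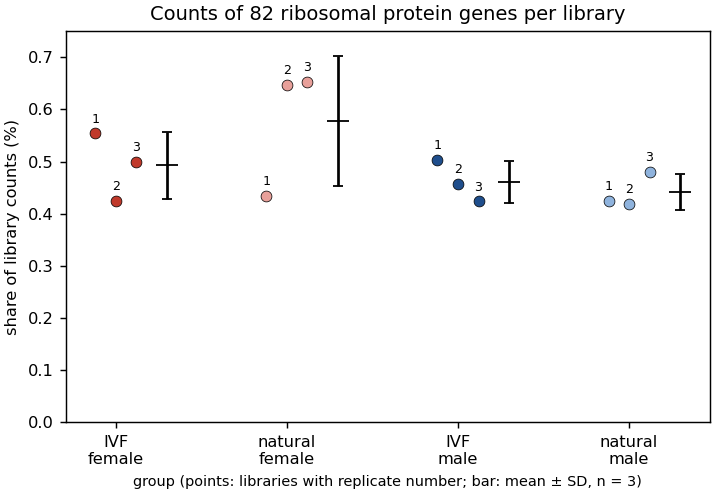
Share of each library's counts (percent, vertical axis from 0) that fell on the 82 cytosolic ribosomal protein genes, by group. Points are libraries with their replicate number and bars are the mean ± SD of 3 libraries; natural females 2 and 3 stand highest at 0.648% and 0.653%.

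The share was spread unevenly over the members. Rpl4, which lines the tunnel through which the new chain leaves, held 10.9% of all member counts. The stalk protein Rplp0 held 4.57%, Rpl8 4.56%, Rps9 4.45% and Rps3 3.78%, and these 5 together 28.3%. Per length, on the scale of mean CPM per kilobase of coding sequence, Rpl41 was highest with 848, followed by Rpl4 with 460 and Rplp1 with 454. Rpl41 encodes the smallest protein of the ribosome, so that this scale rests on a very short coding sequence.

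Among the 78 members that passed the filter on low counts, the lowest levels per coding kilobase were those of Rpl30 with 3.25, Rps27 with 3.82 and Rpl34 with 4.20. All 3 encode proteins of the cytosolic ribosome. Their totals over the 12 libraries were 250 counts for Rpl30, 224 for Rps27 and 362 for Rpl34. The other 4 members did not pass. Rpl26, a protein at the mouth of the exit tunnel, had 1 count in all 12 libraries together. Rpl3l, a copy of Rpl3 known from muscle, and the testis copies Rpl10l and Rpl39l had levels of at most 0.36 CPM in any library. Rps27l, a p53-responsive copy of Rps27, was far above its parent at 320 CPM per coding kilobase, and 48.3% of its words were shared with another gene against 100% for Rps27.

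The level per length ran lower in the members with more shared sequence. It had a median of 239 in the 17 members with under 50% of words shared, 79.2 in the 36 with 50% to under 100%, and 64.1 in the 29 with all words shared. The mitochondrial ribosomal proteins had a median of 33.5. Across the 82 members Spearman's rho between level and shared percent was -0.29, and it was -0.45 across the 78 tested. These are descriptions across genes measured in the same libraries, and genes are not independent replicates. Rpl3l, Rpl39l and Rpl10l went against the order, with 0%, 0% and 12.5% of words shared and almost no counts.

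**Figure D2:**
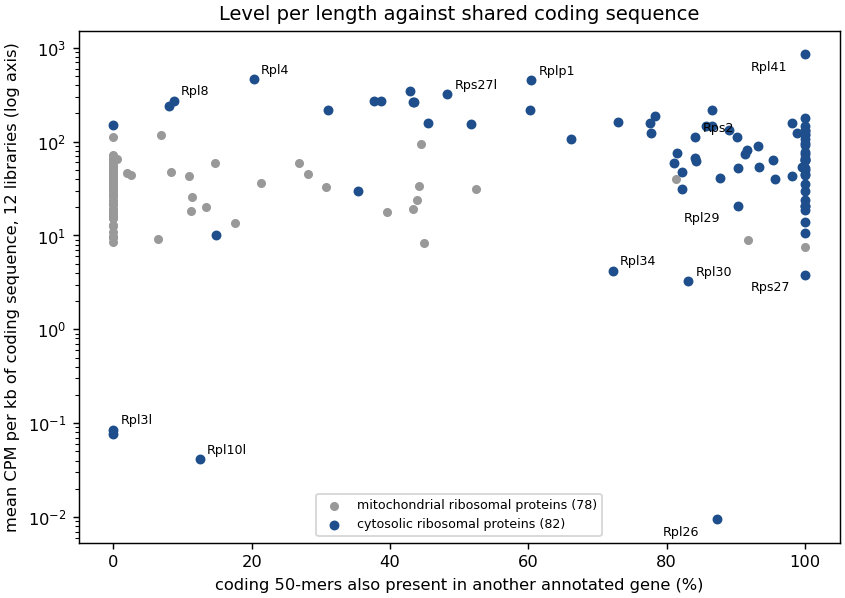
Mean level over 12 libraries (CPM per kilobase of coding sequence, log axis) against the percent of 50-base coding words that also occur in another annotated gene. Blue points are the 82 cytosolic and grey points the 78 mitochondrial ribosomal protein genes; the cytosolic members lie mostly at the right, where levels range from 3.82 (Rps27) to 848 (Rpl41) among those with every word shared.

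In 9 members the closest copy by shared words had an entry of its own in the count table. The copy held more counts than the member in 3 of these. Rpl37rt had 73.3 CPM on average against 13.7 for Rpl37, and Rpl14-ps1 had 168 CPM against 79.7 for Rpl14. The third pair was Rpl32l and Rpl32, both of them members, with 11.8 and 109 CPM. The copies of Rpl26, Rpl30, Rpl34 and Rps27 (Gm15772, Gm12191, Rpl34-ps1 and Rps27rt) had 0 counts in all 12 libraries. These 4 members were themselves at 1.47 CPM or below on average.

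The members differed in how steady they were among libraries of one group. The SD of log2 CPM within groups was smallest in Rpl17 with 0.13, a protein of the exit tunnel, in Rpl7a with 0.16 and in Rpl23a, at the tunnel's mouth, with 0.19. It was largest in Rpl21 with 2.10, Rpl29 with 1.72 and Rps2 with 1.66. The highest library exceeded the lowest by a median of 2.55-fold over 76 members, and by more than 5-fold in 11. Rpl34 and Rps27 were left out of that fold because a library had 3 counts or fewer.

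Rps2 lies where the message enters the small subunit. Its levels were 54.2, 124 and 112 CPM in IVF females, 216, 6.59 and 63.6 in natural females, 132, 12.1 and 11.2 in IVF males, and 156, 148 and 142 in natural males. Natural female 2 and IVF males 2 and 3 were low, and the other 9 libraries were at 54.2 or above. The low libraries came from 2 groups, and only in males did the groups not overlap.

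Rpl29, a small basic protein on the surface of the large subunit, had 2.37, 2.95 and 28.6 CPM in IVF females and 3.65, 2.04 and 0.521 in natural females. It had 3.78, 31.2 and 3.10 CPM in IVF males and 4.20, 4.19 and 33.5 in natural males. One library stood high in each of 3 groups, and the other 9 lay at 4.20 or below. Rpl21 ranged from 1.29 CPM in IVF female 2 to 106 in natural female 2, an 82.2-fold span. Rpl29 also had the widest member difference in females, 2.45 on the log2 scale (SE 1.28), and between the sexes in natural mice, 2.72 (SE 1.29), and neither passed the test.

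**Figure D3:**
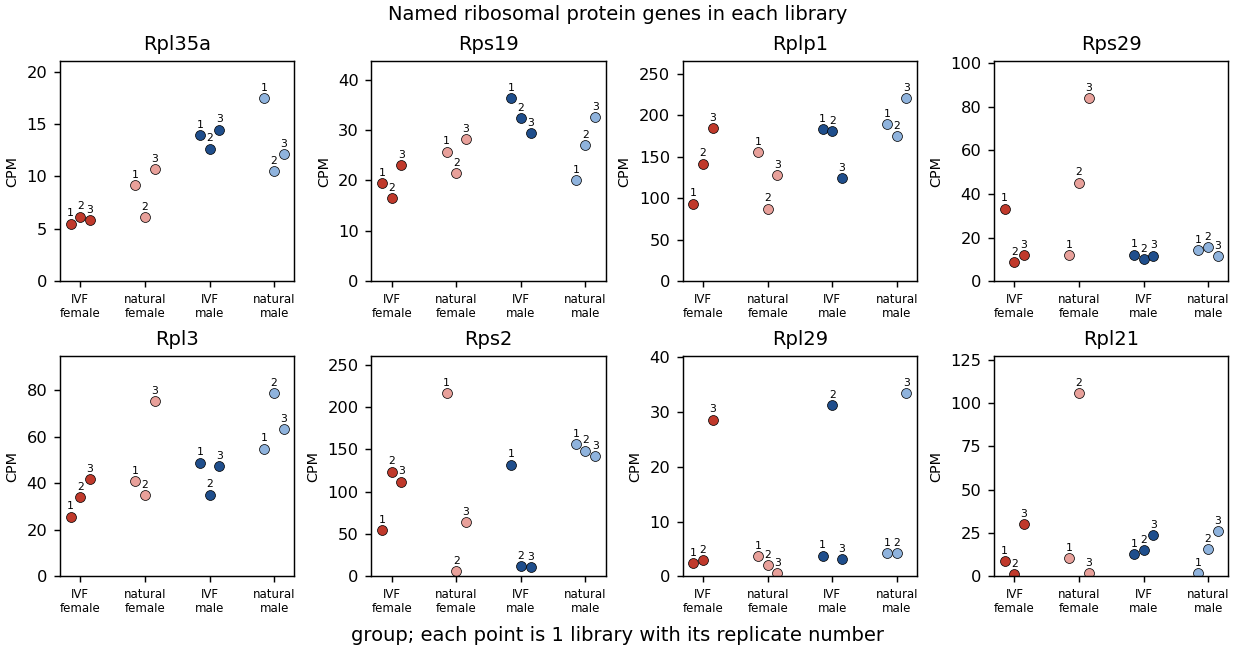
Level (CPM, vertical axes from 0) of 8 members in each of the 12 libraries, by group; numbers are replicate numbers. Rpl35a lies lower in the 3 IVF females (5.49 to 6.15) than in the 3 IVF males (12.6 to 14.5), while Rps2, Rpl29 and Rpl21 split within groups.

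A few libraries stood apart for many members at once. Natural female 3 was more than 1.5-fold above every other library for 11 of the 78 tested members (14.1%), against 1.23% of all genes tested. Among them were Rpl11, Rpl12, Rpl28 and Rps29, and the shared part of their coding words had a median of 100% and was 84.3% at the lowest over the 11. It was as far below every other library for Rpl29, Rps21 and Rps27l (3.85% against 1.63%). It was the highest library for 32.1% of the members and for 8.29% of all genes. Natural female 2 was the highest for 30.8% of the members and 16.4% of all genes.

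The 2 shallow female libraries, IVF female 1 and natural female 2, were both more than 2-fold above the other 4 females for 7 members, or 8.97% against 3.82% of all genes. These were Rpl4, Rpl14, Rpl22, Rpl23, Rpl35, Rpl39 and Rps27l. Rpl14, for example, had 218 and 248 CPM in these libraries and 36.4 to 79.0 in the other females. Only Rps14 was more than 2-fold below, or 1.28% against 2.86%. By any margin both shallow libraries were above the other females for 20 members (25.6% against 24.2%) and below for 12 (15.4% against 26.9%). Ordered by transcript GC content, the median log2 difference of the shallow from the other female libraries was 0.65, 0.40 and -0.16 in the 26 members of lowest, the 26 of middle and the 26 of highest GC content. Over all genes in the same bounds it was 0.18, -0.07 and -0.45. Both sets fell with rising GC content. Refits with an offset for GC content, and without the shallow libraries, are given below for some results. A further refit also leaves out natural female 3, so that natural female 1 is the only natural female in it.

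**Figure D4:**
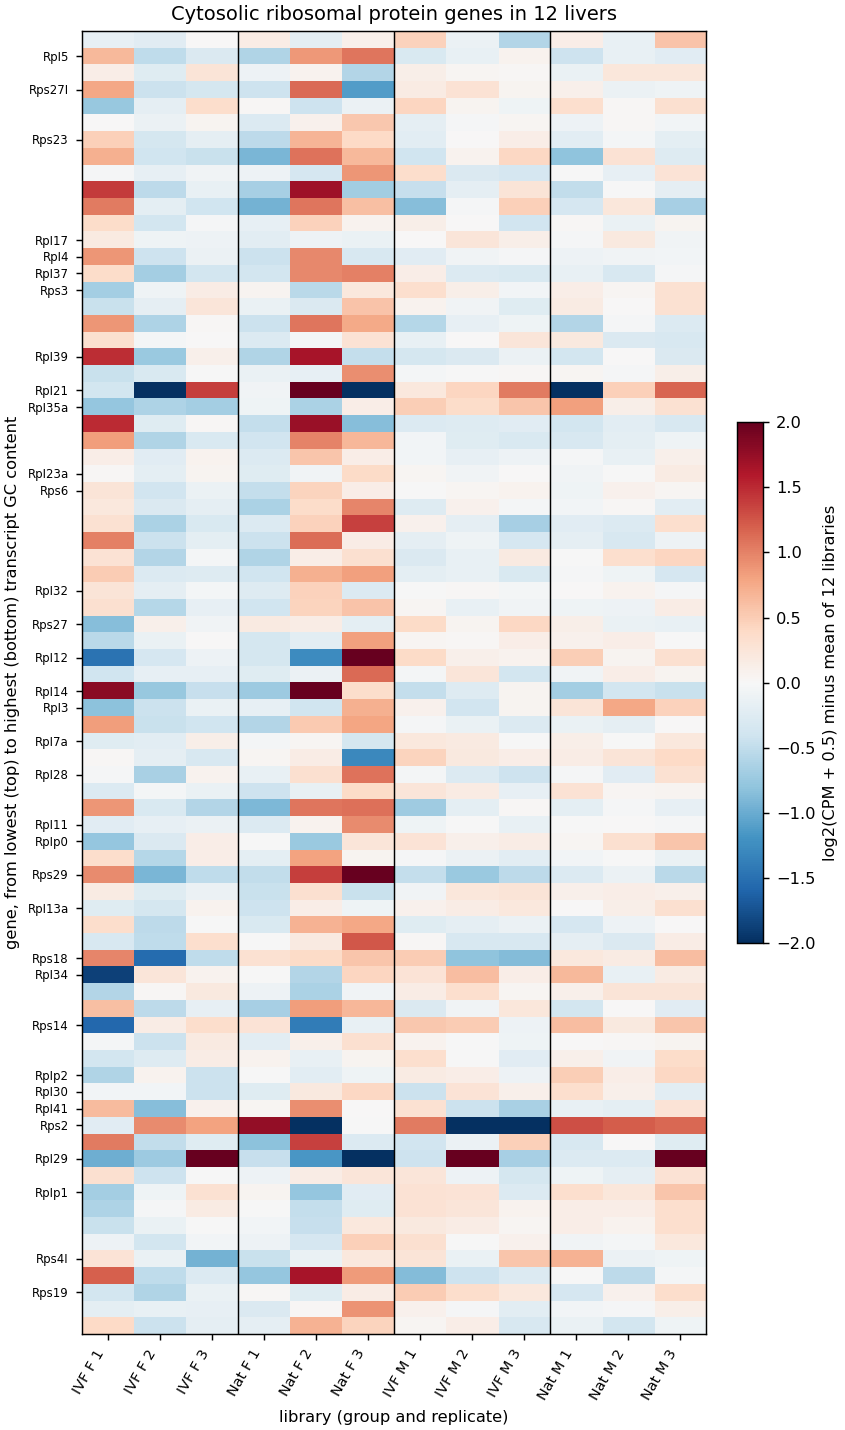
The 78 tested members (rows, from low to high transcript GC content, with names for some of those described in the text) in the 12 libraries (columns, by group and replicate), as log2(CPM + 0.5) minus the gene's mean; colours saturate at a difference of 2. Natural female 3 and the shallow libraries IVF F 1 and Nat F 2 stand out, each for a different set of genes, and Rps2, Rpl29 and Rpl21 vary within groups.

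Whether IVF left a mark on these genes was asked first in females. Of the 78 members tested, 0 passed between IVF and natural females, by edgeR's quasi-likelihood test with Benjamini-Hochberg adjustment over the 13204 genes tested, and 0% of all genes did. At an unadjusted p under 0.05 there were 4 members of 78, all lower in IVF, against 3.7% of all genes. DESeq2 and limma voom also called 0 members. The log2 fold change was negative in 62 of 78 members with a median of -0.19. Over all genes it was negative in 6895 of 13204, with a median of -0.01. For no member were the 3 IVF females all above or all below the 3 natural females, against 7.42% of all genes.

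The 4 members were Rps29, Rpl35a, Rpl37 and Rpl28. Rps29, a protein of the small subunit's head, had 33.2, 8.85 and 11.8 CPM in IVF females and 12.1, 45.2 and 84.1 in natural females. The 3 high values came from the shallow libraries and natural female 3, and the groups overlapped. Its log2 fold change was -1.42 (SE 0.60, adjusted p = 1 by edgeR). It was -0.67 without natural female 3 and -2.21 without both shallow libraries. Without those 3 libraries together it was -0.19, with natural female 1 the only natural female left.

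Rpl37, which binds the core of the large subunit's RNA, had 16.6, 7.73 and 9.79 CPM in IVF females and 9.79, 25.2 and 26.0 in natural females, with a log2 fold change of -0.85 (SE 0.37). Without the same 3 libraries Rpl37 was at -0.13. Rpl28, another protein of the large subunit, had 26.0, 16.7 and 27.9 against 23.8, 33.3 and 56.5 CPM, with -0.69 (SE 0.31). Both groups overlapped in both genes. Among these genes Rpl35a was the steadiest within groups, and its values are given with the comparison of the sexes.

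The size of the female median varied with the libraries used, and it differed between members with less and with more shared sequence. It ranged from -0.42 to -0.12 when each library was left out in turn, and was -0.21 without both shallow libraries. Without natural female 3 and the shallow libraries together, which left natural female 1 as the only natural female, it was 0.15. In the 14 tested members with under 50% of words shared it was -0.02, with 7 positive and 7 negative. In the other 64 it was -0.30, with 55 negative. The genes for mitochondrial ribosomal proteins had a median of 0.04, with 46 of 78 positive, and over all genes 6305 of 13204 were positive.

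In males no member passed the test between IVF and natural offspring, against 0.00757% of all genes. None had an unadjusted p under 0.05, against 2.69% of all genes, and DESeq2 and limma voom called 0 members. The median log2 fold change of the members was -0.04, beside 0.01 over all genes. Within 0.25 of 0 lay 64 of 78 members, against 8722 of 13204 genes. The libraries of the groups did not overlap for 2 members, Rpl3 and Rps2, both lower in IVF males, or 2.56% against 8.91% of all genes.

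Rpl3, a protein that reaches the site where peptide bonds form, had 48.9, 35.1 and 47.4 CPM in IVF males and 54.8, 78.8 and 63.4 in natural males. All 3 IVF values were the lower ones, with a log2 fold change of -0.58 (SE 0.29, adjusted p = 1 by edgeR). In females it had 25.7, 34.0 and 41.6 against 40.9, 34.8 and 75.4 CPM, with -0.57 (SE 0.30) and overlapping groups. Averaged over the sexes, the effect on Rpl3 was -0.58 (SE 0.21), with the smallest unadjusted p of any member (0.0173) and an adjusted p of 1 by edgeR. It was -0.36 without natural female 3 and -0.34 without that library and both shallow ones.

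Of all members Rps2 had the largest difference in males, with -1.53 (SE 1.05). Its value was -3.68 without IVF male 1, -1.06 without IVF male 2 and -1.05 without IVF male 3, so it moved with the single libraries described above. The stalk protein Rplp2 had 40.8, 39.9 and 34.0 CPM in IVF males and 51.3, 39.8 and 48.8 in natural males, with -0.29 (SE 0.20), or -0.15 with library size alone. Natural male 2 lay among the IVF males.

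The difference between the sexes in the IVF effect was tested as an interaction, the male effect minus the female effect. No member passed, against 0% of all genes, and 1 member, Rps19, had an unadjusted p under 0.05, against 3.87% of all genes. The median was 0.18 in the members and 0.03 over all genes. It moved to -0.18 without natural female 3 and the shallow libraries, which left natural female 1 as the only natural female. Rps19 had 0.66 (SE 0.30, adjusted p = 1 by edgeR), Rpl35a 0.61 (SE 0.34) and Rpl37 0.88 (SE 0.51). The value of Rpl35a was 0.40 without natural female 3, and that of Rpl37 was 0.15 without that library and both shallow ones. For the average of the 2 sexes no member passed, against 0.00757%, and 2 members had an unadjusted p under 0.05, against 2.69%. The median of that average was -0.10 in the members, with 62 of 78 negative. Over all genes it was -0.004, with 6715 of 13204 negative.

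**Figure D5:**
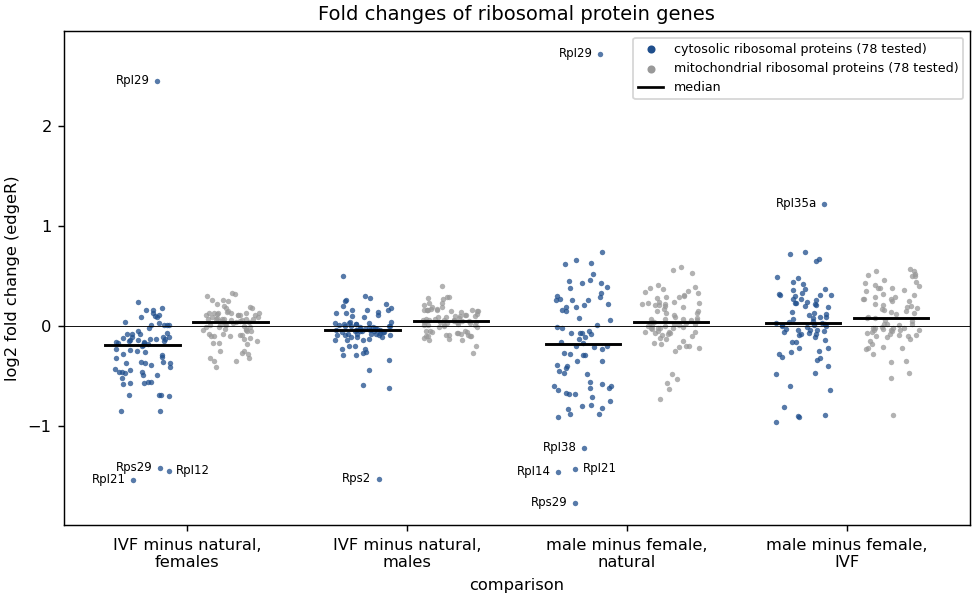
Log2 fold changes (edgeR) of the 78 tested cytosolic (blue) and 78 mitochondrial (grey) ribosomal protein genes in 4 comparisons, with the median of each set as a black bar. Members past 1.2 in either direction are named; the medians of the cytosolic members are -0.19 and -0.04 for IVF against natural in females and males, and -0.18 and 0.03 for male against female in natural and IVF mice.

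The sexes were compared within each mode of conception, and these comparisons share libraries with those above. In IVF mice 1 of 78 members passed the test, against 2.19% of all genes. It was Rpl35a, a large-subunit protein whose gene is mutated in some patients with Diamond-Blackfan anaemia, a failure of red cell production. Its level was 5.49, 6.15 and 5.86 CPM in IVF females and 13.9, 12.6 and 14.5 in IVF males. Every IVF male was more than 2-fold above every IVF female. Rpl35a was 1.22 higher on the log2 scale in IVF males (SE 0.25, adjusted p = 0.0236 by edgeR's quasi-likelihood test).

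In natural mice Rpl35a had 9.15, 6.11 and 10.7 CPM in females and 17.5, 10.5 and 12.1 in males, and the groups overlapped by a narrow margin. The log2 difference was 0.62 (SE 0.24, adjusted p = 0.25 by edgeR). It ranged from 0.38, without natural male 1, to 0.80 when each library was left out in turn. With library size alone it was 0.29, and with quality weights in limma voom 0.39. The interaction above is the test of the gap between 1.22 and 0.62, and it did not pass (adjusted p = 1 by edgeR). The call in IVF mice was lost when any one of the 6 IVF libraries was left out, with adjusted p-values of 0.0574 to 0.0906 by edgeR and fold changes of 1.15 to 1.28. IVF female 1 and IVF male 2, which share a number in their titles, are among these 6. The call was also lost with library size alone (adjusted p = 0.0664) and with an offset for transcript length (0.0849), and the adjusted p was 0.000442 in DESeq2 and 0.0204 with an offset for GC content. Several marker sums also separated IVF males from IVF females without overlap, as did 21.8% of all single genes tested. Lower in IVF males were those of hepatocytes (10 of 10 markers detected, 98547 to 106898 against 121418 to 133084 CPM), Kupffer cells (given above) and sinusoidal endothelium (9 of 9, 262 to 299.9 against 348 to 410 CPM). So were those of stellate cells and fibroblasts (10 of 10, 193 to 287 against 320 to 361 CPM), B and plasma cells (6 of 8, 3.79 to 7.003 against 10.98 to 27.8 CPM) and T and NK cells (8 of 9, 1.92 to 2.26 against 3.03 to 5.64 CPM). Higher in IVF males were those of red cells (4 of 7, with Hba-a2, Hbb-bs and Hbb-bt at 0, 27.3 to 176 against 6.69 to 21.2 CPM), of pancreas (5 of 6, with Prss2 at 0, 24.6 to 41.9 against 10.2 to 21.2 CPM) and of adipocytes (3 of 5, with Lep and Retn at 0, 0.15 to 1.10 against 0 to 0.13 CPM). As single genes, 3 of 11 Kupffer cell markers and 1 of 6 B and plasma cell markers passed edgeR's test between these groups. In the other marker lists 0 passed, against 2.19% of all genes, and no adipocyte marker passed the filter on low counts. The part of these marker sums in the result was not tested.

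Rps19, a small-subunit protein whose gene is also mutated in that anaemia, had 19.4, 16.5 and 23.0 CPM in IVF females and 36.4, 32.4 and 29.4 in IVF males. The groups did not overlap. Its log2 difference was 0.74 (SE 0.21, adjusted p = 0.112 by edgeR), and it passed in DESeq2 (0.0346) and in limma voom with quality weights (0.038). With an offset for GC content the difference was 0.51 (adjusted p = 0.259 by edgeR), and with library size alone 0.64 (0.225 by edgeR). Leaving out each library in turn gave 0.62 to 0.87. In natural mice Rps19 had 25.7, 21.5 and 28.2 CPM in females and 20.1, 27.0 and 32.6 in males, with a difference of 0.08 (SE 0.21) and overlapping groups.

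In IVF mice 2 members had an unadjusted p under 0.05, against 14.9% of all genes. The libraries of the sexes did not overlap for 8 members, all higher in males, or 10.3% against 21.8% of all genes. These were Rpl8, Rpl12, Rpl13a, Rpl18, Rpl35a, Rps19, Rps21 and Rps25. The median log2 difference of the 78 members was 0.03, with 44 positive, and over all genes it was 0.01, with 6697 of 13204 positive.

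In natural mice no member passed, against 1.77% of all genes, and DESeq2 and limma voom called 0 members. An unadjusted p under 0.05 was reached by 6 members, against 14.9% of all genes. Higher in males were Rpl35a, Rplp1 and Rplp2, and lower were Rps29, Rpl37 and Rpl5. The libraries did not overlap for 7 members, all higher in males, or 8.97% against 20% of all genes. These were Rpl17, Rpl29, Rplp1, Rplp2, Rps9, Rps15 and Rps21.

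The smallest unadjusted p was that of Rps29, with 14.1, 15.7 and 11.6 CPM in natural males against the 12.1, 45.2 and 84.1 in natural females. Natural female 1 lay among the males. The log2 difference was -1.77 (SE 0.60, adjusted p = 0.189 by edgeR), -1.03 without natural female 3 and -1.82 without both shallow libraries. Without all 3 libraries, which left natural female 1 as the only natural female, it was 0.20. Rpl5, which with Rpl11 and the small 5S RNA forms a particle that can hold back the p53 regulator MDM2, had 58.2, 162 and 186 CPM in natural females and 65.9, 79.7 and 75.3 in natural males. Its high values came from the same libraries as those of Rps29. Rpl11 was at 27.1, 34.5 and 64.0 CPM in natural females and 32.8, 33.3 and 32.4 in natural males.

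The median log2 difference of the sexes in natural mice was -0.18 in the members, with 50 of 78 negative. Over all genes it was -0.02, with 6884 of 13204 negative. The members' median was 0.04 without natural female 3 and -0.05 without both shallow libraries. Without all 3 libraries, which left natural female 1 as the only natural female, it was 0.28. In the 14 members with under 50% of words shared it was 0.24, with 11 positive, and in the other 64 it was -0.27, with 47 negative. In IVF mice the same 14 members had a median of 0.25, again with 11 positive, and the other 64 had 0.01. The part of read assignment in this split was not tested.

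The 3 stalk proteins, Rplp0, Rplp1 and Rplp2, form the arm that draws elongation factors to the ribosome. All 3 were positive for males against females in both modes of conception. The differences were 0.43, 0.66 and 0.46 in natural and 0.44, 0.22 and 0.36 in IVF mice. None passed the test, against 1.77% of all genes in natural and 2.19% in IVF mice. In natural mice Rplp1 was at 0.34 with library size alone and at 0.33 without natural female 3 and the shallow libraries. In IVF mice Rplp2 was at 0.19 without IVF female 1 and at 0.58 without IVF female 2. Rplp1 had 155, 87.6 and 128 CPM in natural females and 189, 175 and 221 in natural males, without overlap. In IVF mice it had 93.7, 142 and 184 CPM in females and 183, 181 and 124 in males, with overlap. The shallow libraries were the 2 lowest for Rplp1, at 93.7 and 87.6 CPM.

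Of the tunnel proteins, Rpl4 had 1014, 413 and 504 CPM in IVF females and 407, 1068 and 439 in natural females, with the shallow libraries highest. In males it lay between 467 and 538 CPM in all 6 libraries. Rpl39 had 78.5 and 88.4 CPM in the shallow libraries and 16.5 to 30.1 in the other 10. Rpl17 stayed between 16.7 and 23.1 CPM in all 12. Of the proteins along the message's path, Rps3 lay between 107 and 216 CPM and Rps23, at the decoding site, between 34.9 and 80.7. Of the copies, Rps4l lay between 4.49 and 15.2 CPM and Rps27l between 34.0 and 164.

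The members often used as reference genes in expression studies were not equally steady. Within groups the SD of log2 CPM was 0.20 in Rpl13a, 0.24 in Rpl32, 0.29 in Rps6, 0.37 in Rplp0 and 0.77 in Rps18. Rps18 ranged from 5.40 CPM in IVF female 2 to 32.9 in IVF female 1, both within 1 group. Rpl13a ranged from 122 to 206 CPM over the 12 libraries. None of the 5 passed a test in any comparison, against 0% to 2.19% of all genes.

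Genes that work with the ribosome were read from lists. In IVF against natural offspring 0 genes of any list passed the test in either sex, in the interaction or in the average. The share of all genes that passed these tests was 0% to 0.00757%. Over all genes the log2 fold change was positive in 51.6% in IVF males, with a median of 0.01. In IVF females 47.8% of all genes were positive, with a median of -0.01. Among 55 ribosome biogenesis genes the log2 fold change in IVF males was positive in 49, with a median of 0.23, and in IVF females in 29, with a median of 0.02. Of 35 initiation factors 29 were positive in IVF males and 25 in IVF females, with medians of 0.10 and 0.09. Of 27 other messages known for a pyrimidine tract, 20 were positive in males with a median of 0.17, and 6 in females with a median of -0.17. Of 20 p53 targets, with Rps27l among them, 15 were positive in males and 4 in females, with medians of 0.25 and -0.10. Summed marker levels separated IVF from natural males for hepatocytes (10 of 10 markers detected, 98547 to 106898 against 116196 to 127573 CPM), Kupffer cells (11 of 11, 210 to 326 against 393 to 431 CPM) and T and NK cells (8 of 9, 1.92 to 2.26 against 3.20 to 5.30 CPM). They separated IVF from natural females for stellate cells and fibroblasts (10 of 10, 320 to 361 against 269 to 308 CPM). Of all single genes tested, 8.91% separated IVF from natural males and 7.42% IVF from natural females. The part of these marker sums in the list medians, and in those of the members, was not tested.

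The medians of RNA polymerase I and its factors (16 genes) were 0.10 in males and -0.15 in females, those of the mTORC1 and S6 kinase list (32 genes) were -0.02 and -0.05, and those of 9 elongation factors were -0.02 and 0.03. Between the sexes, 1 gene passed in each of 2 lists, both lower in natural males. The lists held 35 initiation factors and 27 other messages known for a pyrimidine tract, and 1.77% of all genes passed in natural mice. These were the initiation factor subunit Eif2s3x, on the X chromosome, with -0.85 (SE 0.16, adjusted p = 0.0209 by edgeR), and the noncoding host gene Epb41l4aos, with -1.59 (SE 0.29, adjusted p = 0.0178). Of 7 close relatives outside the symbol pattern, such as Fau and Rack1, 0 passed in any comparison, against 0% to 2.19% of all genes. Rps3a1, the standard gene for a small-subunit protein that the pattern misses, had 19759 counts in all, or 90.0 CPM on average.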

How the data were processed

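Livers of 12 mice were measured. The authors deposited 1 table of raw counts, whole numbers of reads for each symbol and library. Trimmomatic 0.32, STAR 2.3.0e, featureCounts 1.5.0 and build mm10 are named per the submitters' processing notes; the annotation, strand setting and treatment of multiply matching reads are not given in the sources used here. Columns were assigned by sample titles.

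Counts were tested with edgeR 4.0.16 (R 4.3.3; filterByExpr, TMM, quasi-likelihood F-test, 1 model with a mean per group over all 12 libraries), with Benjamini-Hochberg adjustment over 13204 genes and a threshold of 0.05. Alternatives used DESeq2 1.42.0, limma 3.58.1 and other scalings, filters and libraries. Standard errors are the log2 fold change over the root of F. The members and lists were chosen with earlier results of these data known. Members named with values were the 3 of smallest unadjusted p in each comparison, the highest, lowest, steadiest and least steady 3, the members not tested, and fixed role lists; others were chosen after their values were seen. The fit was tested on simulated data. Symbols were matched to GENCODE M21, 23805 by symbol and 338 by synonym, with 384 unmatched. Libraries of 1 group differed beyond counting noise (chi-square per degree of freedom 80.7 to 189). Some genes are not reported by name here.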

Additional observations from a re-analysis of the deposited data

How the results depend on the processing

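No member was called for IVF against natural in females, in males, in the interaction or in the average, nor for the sexes in natural mice, under any alternative run. For the sexes in IVF mice, 1 member was called, 0 with library size alone or a transcript length offset, 2 with DESeq2 or with voom quality weights, and 0 to 1 leaving out each library. The members' median log2 fold change in females ranged from -0.42 to -0.12 leaving out each library. It was 0.15 without natural female 3 and both shallow libraries, a setting added after the data were seen that leaves 1 natural female. For the interaction it was 0.38 with library size alone, 0.042 to 0.41 leaving out each library and -0.18 without those 3 libraries. For the sexes in natural mice it was -0.47 with library size alone, -0.35 to 0.0404 leaving out each library, 0.28 without those 3 libraries and 0.24 in members under 50% shared, a split also added later. For the sexes in IVF mice it was 0.25 in that split. Rps29 in natural mice turned from -1.77 to 0.20 without the 3 libraries. The cause of these shifts was not tested, except that library size alone moved the median of all genes too, to -0.34 for the sexes in natural mice and 0.23 for the interaction; relative to that median the members' was -0.13 and 0.15, against -0.16 and 0.15 with TMM. Library size alone turned the members' median to 0.09 for IVF in males and to -0.07 for the sexes in IVF mice. The median of all genes moved to 0.14 and -0.10. Relative to that median the members' was -0.05 and 0.03, against -0.05 and 0.02 with TMM. With library size alone, 88 of the 510 calls over all genes in natural mice were higher in males, against 118 of 234 with TMM. Over all genes, calls for the sexes ranged from 100 to 647 in natural and from 137 to 695 in IVF mice, from 0 to 4 for IVF in females, 0 to 2 in males, 0 to 6 for the interaction and 0 to 4 for the average. The members' share of counts kept within the spread of replicates under 5 alternatives. Rpl26, Rpl3l, Rpl10l and Rpl39l had too few counts to be tested, and the cause was not tested. No paired analysis was made, because the labels do not say what the numbers in the titles stand for. Only 1 of these numbers, that of IVF female 1 and IVF male 2, occurs in more than 1 group.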
